A study of Mus musculus with 6 samples.

Results

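Genes of the cilium were examined in bulk RNA of mouse kidneys. The genes taken were all protein-coding genes of the deposited table whose symbol starts with Dnah, Dnai, Dnaaf, Ift, Bbs, Nphp, Pkd, Tctn, Rsph or Cfap followed by a number, which gave 63 genes of the 17550 in the table. The rule used names only, not values. The study compared 3 KC-Tie2 kidney samples with 3 Control kidney samples. KC-Tie2 mice carry a Tie2 transgene in the keratinocytes of the skin and serve as a psoriasis model; Tie2 is an angiopoietin receptor, and the kidney, not the skin, was measured here. Controls are labelled Control by genotype, and the same group is headed WT in the authors' deposited comparison. The labels give no promoter, strain, sex, age, litter or batch, and they do not say that each sample is a separate animal, so a p-value here reflects sample-to-sample spread only, part of which may be technical. The sex-linked genes Kdm5d, Uty, Ddx3y and Eif2s3y had normalized counts of 440 to 1049 in all 6 libraries. Xist was at 38.2, 25.6 and 241 in KC-Tie2 and 98.4, 89.3 and 415 in Control replicates 1 to 3. What these values mean for the sex of the samples was not tested. In both groups the kidneys came from animals perfused with saline, and the libraries were poly(A)-selected.

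A cilium is built around an axoneme of microtubules. In motile cilia, rows of axonemal dynein motors, placed as outer and inner arms and controlled by radial spokes, bend the axoneme. Tubule cells of the kidney instead carry a single non-motile primary cilium, which is built by intraflagellar transport (IFT), loaded and unloaded by the BBSome, gated at its base by the transition zone, and equipped with the polycystins. Loss of IFT, transition zone or polycystin genes is a known cause of kidney cysts in mouse and human.

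Values are normalized counts, and a difference is the limma log2 fold change ± SE of KC-Tie2 over Control, taken after adding 1 to each value. A gene is called when its adjusted p is under 0.05 over all 17539 genes tested, and only called genes are said to have risen or fallen. The normalized counts of the table summed to between 23647811 and 25155944 in KC-Tie2 libraries and to between 24288853 and 25495455 in Control libraries. The spacing of low values put the depth before normalization at 21298935 to 29516105 estimated counts in KC-Tie2 libraries and 18843869 to 29409406 in Control libraries. All 63 genes averaged at least 10 over the 6 libraries and were tested, so none was lost to that filter, although each gene of the deposited table reaches at least 24.78 in some library and lower genes are not analysed here. Kidney markers were present, with all 8 proximal tubule, 6 thick ascending limb, 7 principal cell and 6 podocyte markers in the table. None of 10 multiciliated cell markers, among them Foxj1, the main transcription factor of motile cilia, Hydin and Sntn, is among the genes of the table used here. Marker sums, none of them tested, did not overlap between the genotypes for 3 tubule segments. The proximal tubule sum was 300742 to 346796 in KC-Tie2 and 353431 to 376849 in Control libraries. The thick ascending limb sum was 152024 to 183707 in KC-Tie2 and 137105 to 145343 in Control libraries. The principal cell sum was 12293 to 16341 in KC-Tie2 and 8001 to 11020 in Control libraries. Single markers did not all follow. The proximal tubule marker Slc5a12 was higher in every KC-Tie2 library (8244 to 9838, against 7233 to 7834 in Control), and Aqp1, Cubn and Slc5a2 overlapped. Umod, Egf and Cldn16 of the thick ascending limb overlapped, as did Fxyd4 and Aqp4 of principal cells. The remaining markers of these 3 lists did not overlap and lay on the side of their sum. The sums overlapped for the distal convoluted tubule (42717 to 49507 in KC-Tie2 and 37079 to 43706 in Control) and intercalated cells (5249 to 5928 in KC-Tie2 and 4752 to 5391 in Control). Those of podocytes (10058 to 13502 in KC-Tie2 and 9130 to 10262 in Control), endothelium and stroma overlapped too. Macrophage sums (2154 to 2540 in KC-Tie2 and 1619 to 2122 in Control) and parietal epithelium sums (4059 to 4375 in KC-Tie2 and 3757 to 4030 in Control) did not overlap. Of single macrophage markers, 3 of 6 rose, where 0.855% of all genes did. C1qa, C1qb and C1qc were higher in every KC-Tie2 library, while Csf1r, Cd68 and Adgre1 overlapped. Csf1r, the macrophage marker with the highest counts, was highest in Control replicate 3, at 1561. Of the parietal epithelium markers, only Pax8 did not overlap (2746 to 2840 in KC-Tie2 and 2511 to 2707 in Control). Akap12, Cldn1 and Ncam1 overlapped. In bulk tissue, a lower value can mean fewer cells of a type or less RNA per cell, and these cannot be told apart; the part of segment markers in the results below was not tested.

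Of the 63 ciliary genes, 1 fell and 0 rose. The gene that fell was Dnah5. Over all tested genes, 0.838% were called lower and 0.855% higher, and 1.69% in either direction, so 1 call among 63 is close to the background. The ciliary genes had a median log2 fold change of 0.0047 and a median absolute log2 fold change of 0.135, against 0.0012 and 0.129 over all genes tested. There were 32 with a log2 fold change above 0 and 31 below 0, and below 0 lay 49.7% of all genes. An unadjusted p under 0.05 was seen at 7 of the 63 (11.1%), against 15.3% of all genes. The KC-Tie2 and Control libraries did not overlap at 15 of the 63 (23.8%), 8 higher and 7 lower in KC-Tie2, against 20% of all genes. In the authors' deposited table, 1 of the 63 genes, again Dnah5, had a step-up FDR under 0.05, as did 3.91% of all genes there. Of the 63 genes, 62 lay on the same side of no change in the authors' deposited table and in the limma fit.

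Levels were compared between genes only after dividing the normalized count by the exon length of the gene (union of exons in GENCODE vM21, matched by gene ID, available for 62 of the 63). The gene with the highest level per kb in Control kidneys was Pkd2, which encodes the channel polycystin-2, at 679 per kb in KC-Tie2 and 576 per kb in Control kidneys. It was followed in Control by the radial spoke gene Rsph3b (347 per kb in KC-Tie2 and 378 in Control) and the transport gene Ift20 (341 per kb in KC-Tie2 and 330 in Control). The 10 axonemal dynein heavy chains had the lowest median level of the 12 families, 3.51 per kb in Control, and Dnah10 was the lowest of all at 1.41 per kb in KC-Tie2 and 0.804 per kb in Control. The median level in Control was 92.7 per kb for 11 IFT-B genes, 74.5 for 3 IFT-A genes, 54.9 for 6 BBSome subunits and 166 for 3 polycystin genes.

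**Figure D1:**
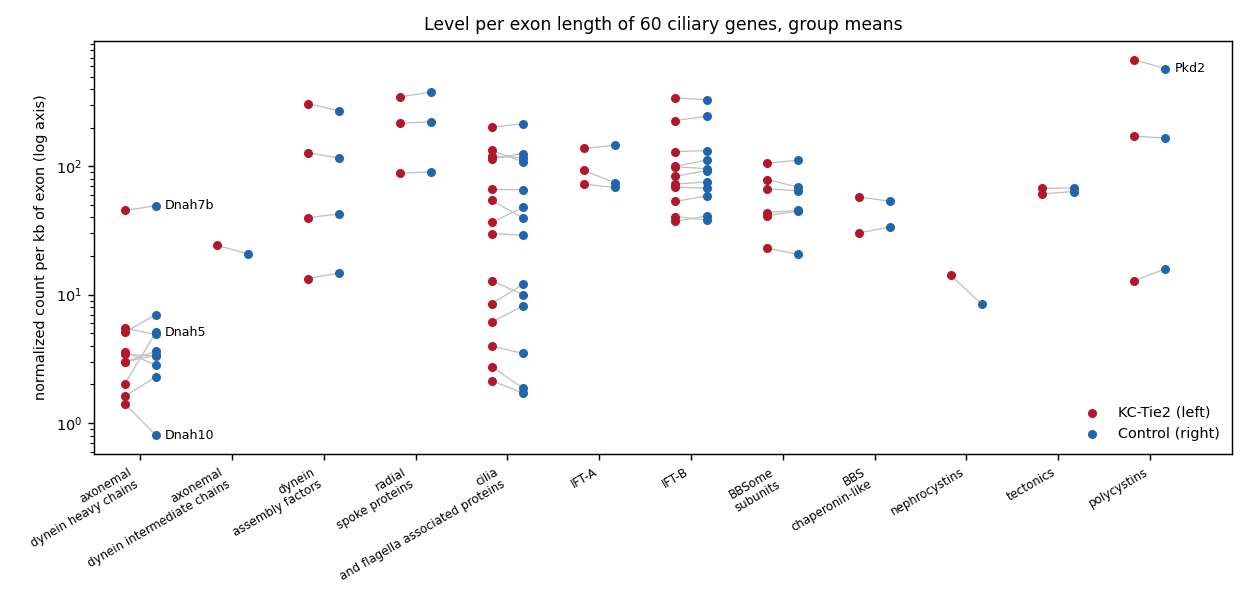
Normalized count per kb of exon (log axis) for 60 ciliary genes by family, with the KC-Tie2 mean on the left and the Control mean on the right of each grey line. Heavy chain genes other than Dnah7b lie under 10 per kb, IFT genes between about 37.3 and 341 per kb, and Pkd2 is highest at 679 per kb in KC-Tie2 and 576 per kb in Control kidneys.

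Among the axonemal dynein genes, the heavy chain Dnah5 fell in KC-Tie2 kidneys while the other 9 heavy chains were not called in either direction. Dnah5 encodes a heavy chain of the outer dynein arm, and its loss causes primary ciliary dyskinesia in human and mouse. It is at chromosome 15, 28203898 to 28472198, on the plus strand (mm39, ENSMUSG00000022262), and no other gene of the table overlaps it. Its normalized count was 20.0, 41.7 and 33.6 in KC-Tie2 replicates 1 to 3, against 68.3, 94.2 and 77.1 in Control replicates 1 to 3. All KC-Tie2 libraries lay below all Control libraries, and the highest KC-Tie2 value was well under the lowest Control value. The means were 31.7 ± 10.96 in KC-Tie2 and 79.9 ± 13.1 in Control kidneys (SD, n = 3 each), a ratio of 0.392 with a 95% interval of 0.255 to 0.602 (log2 fold change -1.35 ± 0.28, limma adjusted p = 0.0394). These values rest on few reads, about 18, 50 and 37 estimated counts in the KC-Tie2 and 65, 114 and 57 in the Control libraries.

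The call of Dnah5 did not hold in most fits with a library left out. The log2 fold change lay between -1.57 and -1.06 when each library was left out in turn, and the adjusted p between 0.0386 and 0.142. The call was kept without KC-Tie2 replicate 3 and lost without each of the other 5 libraries, and it was lost with eBayes run without its robust option (adjusted p = 0.0607). Calls over all genes went from 297 to 51 without Control replicate 1 and to 54 without Control replicate 3. They went to 69 without KC-Tie2 replicate 1 and to 48 without KC-Tie2 replicate 2. Without Control replicate 2 they went to 530. Whether the call of Dnah5 was lost through a particular library or through fewer libraries was not tested. In the authors' deposited table, Dnah5 had a ratio of 0.401 and a step-up FDR of 0.00362.

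The start region of Dnah5 is shown because it was the one ciliary gene called. RFX factors, which regulate ciliary genes, bind a palindrome called the X-box, searched here as GTTNCC, then 2 bases of any kind, then GGNAAC, in the 250 bases before the start; it is its own reverse complement. An arm of it, GTTNCCATG, was searched on both strands as well. RefSeq start regions (GRCm38.p6) were found for 51 of the 63 genes. The full X-box was present in 0.374% of all 32851 start regions and in those of 3 ciliary genes, Bbs7, Cfap20dc and Cfap298, which are printed with 60 bases around it. The arm GTTNCCATG was present in 1.56% of all start regions and in those of 4 ciliary genes, Cfap20, Cfap74, Dnah5 and Tctn2. Capitals mark the match, which in Dnah5 ends 59 bases before the start and reads as the reverse complement of the arm. A match is a string of letters and not a measured binding site. The regions are chr15:28203516-28203765 on the plus strand for Dnah5, and, on the minus strand, chr3:36613474-36613533 for Bbs7, chr14:8666356-8666415 for Cfap20dc and chr16:90935001-90935060 for Cfap298.
Dnah5: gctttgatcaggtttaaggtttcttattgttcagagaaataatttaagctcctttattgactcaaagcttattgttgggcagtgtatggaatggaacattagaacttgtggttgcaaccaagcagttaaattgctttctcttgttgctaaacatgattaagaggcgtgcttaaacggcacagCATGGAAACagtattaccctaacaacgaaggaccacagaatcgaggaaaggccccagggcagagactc
Bbs7: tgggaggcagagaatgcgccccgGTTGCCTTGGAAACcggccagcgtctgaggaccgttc
Cfap20dc: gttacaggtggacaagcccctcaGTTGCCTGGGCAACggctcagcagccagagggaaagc
Cfap298: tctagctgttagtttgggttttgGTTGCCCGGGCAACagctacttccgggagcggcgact
None of these 3 genes with a full X-box was called (limma adjusted p = 0.888 for Bbs7, 0.458 for Cfap20dc and 0.269 for Cfap298).

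Of the other heavy chains, 4 had a log2 fold change above 0 and 5 below 0, and Dnah10 and Dnah12 had the smallest p. Dnah10, an inner arm heavy chain, was at 14.4, 27.5 and 26.3 in KC-Tie2 and at 13.7, 15.7 and 9.47 in Control libraries. The groups overlapped (log2 fold change 0.74 ± 0.43, limma adjusted p = 0.452), and the 95% interval of the ratio ran from 0.877 to 3.20. Each gene of the table reaches at least 24.78 in some library, and Dnah10 did so only in KC-Tie2 libraries. If that level was a filter, it favoured a value above 0 for Dnah10, so its direction cannot be read from this difference. Dnah12, a single-headed inner arm chain, was at 40.0, 73.4 and 69.9 in KC-Tie2 and 68.3, 91.7 and 92.0 in Control libraries, with KC-Tie2 replicate 1 lowest (log2 fold change -0.49 ± 0.25, limma adjusted p = 0.394). Dnah11, which like Dnah5 belongs to the outer arm, averaged 52.1 ± 11.001 in KC-Tie2 and 40.9 ± 14.5 in Control kidneys (limma adjusted p = 0.6003). The difference between the changes of Dnah5 and Dnah11 was not tested. By level per kb, Dnah5 was the eighth of the 10 heavy chains in KC-Tie2 kidneys, against the third in Control kidneys.

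Dnah7b made up 69.3% of the heavy chain sum in KC-Tie2 and 67.6% in Control kidneys. Its normalized count was 835, 951 and 931 in KC-Tie2 and 956, 1045 and 957 in Control libraries. Each KC-Tie2 library lay below each Control library, by a small margin (log2 fold change -0.12 ± 0.08, limma adjusted p = 0.497). Dnah7b belongs to a cluster of close copies with Dnah7c on chromosome 1, so the share of reads counted for each copy is uncertain; Dnah7c averaged 69.0 ± 19.0 in KC-Tie2 and 61.8 ± 13.4 in Control kidneys. The summed heavy chain value was 1311 ± 137 in KC-Tie2 and 1459 ± 85.9 in Control kidneys (SD, n = 3), which overlapped between the genotypes. Dnai4, an intermediate chain and the one Dnai gene in the table, averaged 177 ± 20.7 in KC-Tie2 and 153 ± 12.7 in Control kidneys (limma adjusted p = 0.545).

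**Figure D2:**
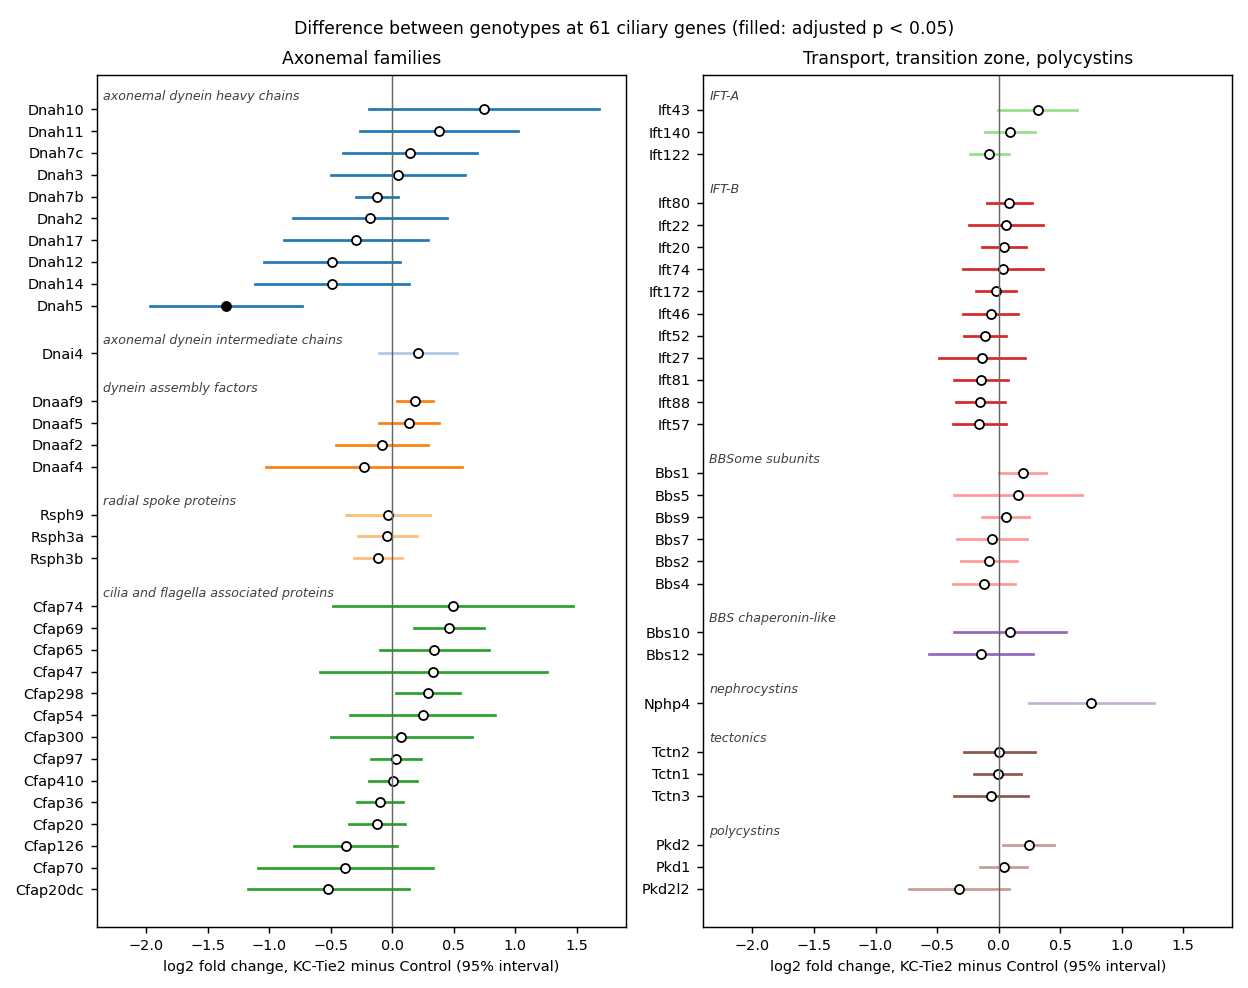
Log2 fold change, KC-Tie2 minus Control, of 61 ciliary genes by family, with points for the limma estimate and bars for its 95% interval. Dnah5, at -1.35, is the one filled point (adjusted p under 0.05); intervals are wide for heavy chains and low Cfap genes and narrow for IFT and BBSome genes.

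Dynein arms are assembled in the cytoplasm by dedicated factors before they enter the cilium. None of the 4 assembly factor genes was called by limma or voom, with 1 at an unadjusted p under 0.05. That gene, Dnaaf9, related to a factor that packages outer arm dyneins in Tetrahymena, was at 3171, 3406 and 3246 in KC-Tie2 and 2832, 3036 and 2772 in Control libraries. The 3 KC-Tie2 libraries lay above the 3 Control libraries, at a ratio of 1.14 with a 95% interval of 1.03 to 1.26 (limma adjusted p = 0.206). Dnaaf9 overlaps the lncRNA gene A730017L22Rik on the same strand, which limits the assignment of reads. Dnaaf5 averaged 448 ± 46.0 in KC-Tie2 and 408 ± 46.8 in Control kidneys, and Dnaaf4 averaged 26.4 ± 13.0 in KC-Tie2 and 29.2 ± 4.12 in Control kidneys. The 3 radial spoke genes had log2 fold changes of -0.12 (Rsph3b), -0.041 (Rsph3a) and -0.036 (Rsph9), and none was called by limma or voom or had an unadjusted p under 0.05. Rsph9, a spoke head protein, was at 164, 143 and 119 in KC-Tie2 and 155, 138 and 141 in Control libraries. Rsph3a and Rsph3b are near-identical copies, so their separate values are uncertain; they averaged 651 ± 61.0 and 1082 ± 45.8 in KC-Tie2 and 672 ± 92.4 and 1178 ± 149 in Control kidneys.

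The 14 genes named for cilia- and flagella-associated proteins (Cfap) form the most mixed family, since the name covers proteins of the axoneme, its central apparatus, basal bodies and cytoplasm. None was called by limma or voom. There were 9 with a log2 fold change above 0, 5 below 0, and 2 with an unadjusted p under 0.05. Cfap69, a protein of sperm flagella and olfactory cilia, was at 368, 469 and 450 in KC-Tie2 and 359, 310 and 267 in Control libraries. The lowest KC-Tie2 library was just above the highest Control library (ratio 1.38, 95% interval 1.13 to 1.68, limma adjusted p = 0.112; the authors' deposited table gave an FDR of 0.0639). Cfap298, which takes part in dynein arm assembly, was at 212, 204 and 217 in KC-Tie2 and 174, 176 and 168 in Control libraries. Both groups were tight and did not overlap, with a ratio of 1.22 (95% interval 1.02 to 1.47, limma adjusted p = 0.269). Cfap126, involved in basal body placement, was at 71.1, 56.7 and 67.1 in KC-Tie2 and 90.3, 73.5 and 90.6 in Control libraries, with every KC-Tie2 library lower (limma adjusted p = 0.381). Cfap36 and Cfap97, which had the highest mean normalized counts of the family before division by length, averaged 552 ± 41.0 and 616 ± 38.2 in KC-Tie2 and 591 ± 17.2 and 604 ± 55.3 in Control kidneys.

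**Figure D3:**
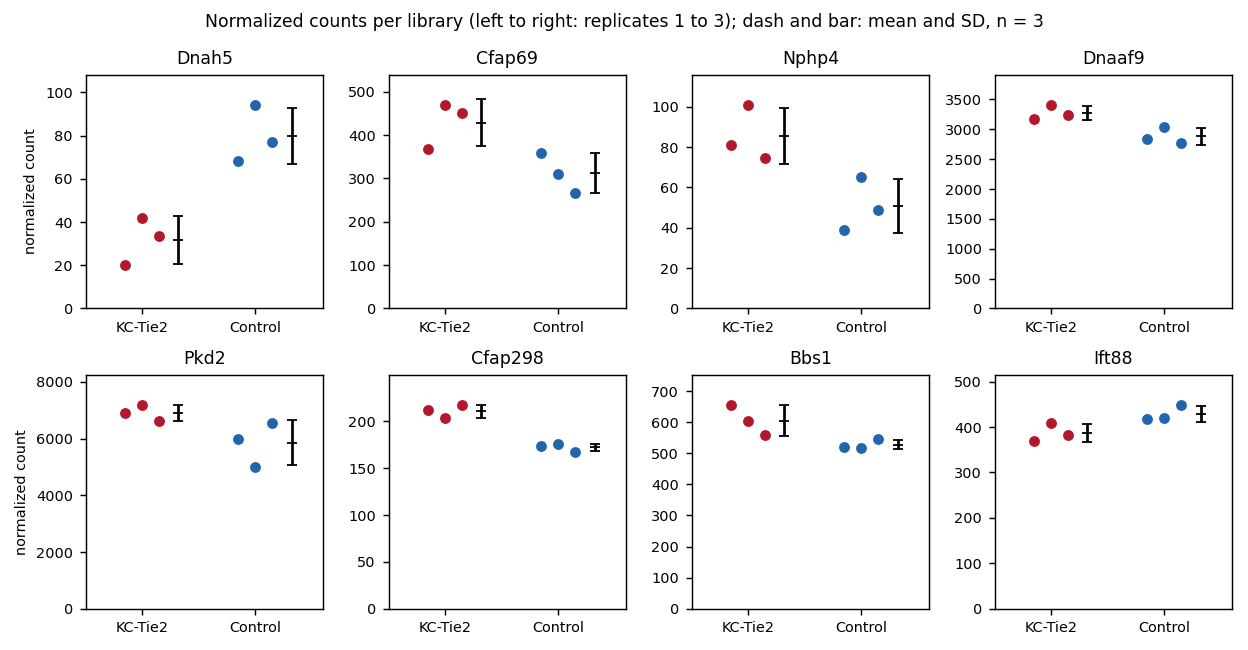
Normalized count in each library for the 7 ciliary genes with an unadjusted p under 0.05 and for Ift88, KC-Tie2 on the left and Control on the right; dashes and bars are the mean and SD (n = 3). KC-Tie2 libraries lie below Control libraries for Dnah5 and Ift88 and above them for the other 6 genes, with the groups nearly touching for Cfap69, Pkd2 and Bbs1.

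The IFT genes, which encode the trains that carry cargo along the axoneme, showed small differences between the genotypes. All 14 IFT genes of GENCODE vM21 under these names were in the table. None of the 14 was called by limma or voom or had an unadjusted p under 0.05. The 95% intervals of all 14 ratios lay between 0.715 and 1.56. The median log2 fold change was -0.045, with 6 genes above 0 and 8 below 0. The IFT-A complex drives return transport and the entry of membrane receptors. Its subunit gene Ift43 was at 165, 158 and 138 in KC-Tie2 and 112, 132 and 124 in Control libraries; the groups did not overlap (ratio 1.25, 95% interval 0.996 to 1.56, limma adjusted p = 0.334). Ift140, which causes cystic kidney disease in human when altered, averaged 606 ± 24.4 in KC-Tie2 and 570 ± 59.8 in Control kidneys. Ift122 averaged 1422 ± 38.3 in KC-Tie2 and 1502 ± 119 in Control kidneys.

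The 11 IFT-B genes, for the complex that drives outward transport, had 4 log2 fold changes above 0 and 7 below 0, with a median of -0.066. That median was -0.14 without KC-Tie2 replicate 2 and 0.00057 without KC-Tie2 replicate 3. Its sign changed only without KC-Tie2 replicate 3, and it stayed below 0 with any other library left out. Ift88, whose disruption gives polycystic kidneys in the mouse, was at 370, 408 and 383 in KC-Tie2 and 418, 420 and 448 in Control libraries. All KC-Tie2 libraries were below all Control libraries, by a ratio of 0.902 (95% interval 0.787 to 1.04, limma adjusted p = 0.489). Ift57 showed the same order, at 283, 291 and 286 in KC-Tie2 and 310, 324 and 325 in Control libraries (ratio 0.897, 95% interval 0.773 to 1.04, limma adjusted p = 0.496). Ift52, a core subunit, was at 611, 658 and 640 in KC-Tie2 and 670, 667 and 727 in Control libraries (ratio 0.925, limma adjusted p = 0.545). These 3 of 11 were the IFT-B genes without overlap, where 20% of all genes had none. Ift172, the largest IFT-B protein, averaged 862 ± 43.7 in KC-Tie2 and 877 ± 36.4 in Control kidneys.

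The BBSome is a coat that ferries membrane proteins out of the cilium, and its loss causes Bardet-Biedl syndrome. None of its 6 subunit genes was called by limma or voom, and 1 had an unadjusted p under 0.05. Bbs1, the subunit bound by the small GTPase Arl6, was at 654, 604 and 557 in KC-Tie2 and 520, 518 and 545 in Control libraries. The groups did not overlap, with KC-Tie2 replicate 3 close to Control replicate 3 (ratio 1.14, 95% interval 1.00 to 1.30, limma adjusted p = 0.309). Bbs9 was tight in both genotypes, at 418 ± 9.14 in KC-Tie2 and 402 ± 4.49 in Control kidneys (ratio 1.04, limma adjusted p = 0.821). Bbs2 and Bbs4 averaged 350 ± 29.3 and 249 ± 18.6 in KC-Tie2 and 369 ± 24.5 and 271 ± 17.7 in Control kidneys. The 95% intervals of the 6 ratios lay between 0.774 and 1.599. The chaperonin-like genes Bbs10 and Bbs12, which help to assemble the BBSome, averaged 176 ± 48.1 and 73.7 ± 3.96 in KC-Tie2 and 163 ± 32.4 and 82.4 ± 14.3 in Control kidneys.

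At the transition zone, Nphp4 stood higher in KC-Tie2 libraries without being called. Nphp4 encodes a transition zone protein linked to nephronophthisis, a cystic kidney disease of childhood. Nphp4 was at 81.1, 101 and 74.4 in KC-Tie2 and 38.9, 65.2 and 48.7 in Control libraries, and the groups did not overlap. The means were 85.4 ± 13.8 in KC-Tie2 and 50.9 ± 13.3 in Control kidneys, a ratio of 1.69 with a 95% interval of 1.18 to 2.40 (log2 fold change 0.75 ± 0.23, limma adjusted p = 0.142). Nphp4 overlaps Kcnab2 on the other strand (57.9 in KC-Tie2 and 68.3 in Control), and whether counting used strand was not stated in the labels. The 3 tectonics, subunits of another transition zone complex, had log2 fold changes from -0.062 to 0.0047 and unadjusted p-values above 0.05, and none was called by limma or voom. Tctn1, Tctn2 and Tctn3 averaged 559 ± 32.8, 278 ± 39.1 and 199 ± 21.3 in KC-Tie2, against 562 ± 35.9, 277 ± 31.9 and 208 ± 23.9 in Control kidneys.

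The polycystins Pkd1 and Pkd2 encode the receptor-like protein and the channel that are mutated in autosomal dominant polycystic kidney disease. Neither was called by limma or voom, and Pkd2 had an unadjusted p under 0.05. Pkd2 was at 6916, 7171 and 6626 in KC-Tie2 and 6001, 5008 and 6563 in Control libraries. KC-Tie2 replicate 3 was only just above Control replicate 3 (ratio 1.19, 95% interval 1.03 to 1.37, limma adjusted p = 0.234). Pkd1 was at 3427, 2725 and 2815 in KC-Tie2 and 2828, 3045 and 2804 in Control libraries, with the groups overlapping and KC-Tie2 replicate 1 highest (ratio 1.03, 95% interval 0.900 to 1.18, limma adjusted p = 0.882). Pkd1 overlaps the end of Tsc2 on the other strand (2775 in KC-Tie2 and 2635 in Control). Pkd2l2, a polycystin-like channel gene, was at 65.5, 71.1 and 86.1 in KC-Tie2 and 93.5, 83.2 and 101 in Control libraries, with KC-Tie2 replicate 3 inside the Control range (ratio 0.801, limma adjusted p = 0.459). Pkd2 is known to be abundant in distal nephron segments, and whether segment markers bear on its values was not tested. The marker sum of the thick ascending limb was higher in each KC-Tie2 library than in each Control library, as was that of principal cells. The marker sum of the distal convoluted tubule overlapped. Of the single markers, 2 of 4 of the distal convoluted tubule, 1 of 7 of principal cells and 0 of 6 of the thick ascending limb rose, where 0.855% of all genes did. Slc12a3, the distal convoluted tubule marker with the highest count, was at 32438, 33585 and 29442 in KC-Tie2 and 32711, 35423 and 30053 in Control libraries, which overlapped. The other markers of that segment were higher in every KC-Tie2 library. Calb1 was at 10853 to 14386 in KC-Tie2 and 5907 to 7399 in Control libraries. Trpm6 was at 1103 to 1262 in KC-Tie2 and 902 to 936 in Control, and Pvalb at 273 to 308 in KC-Tie2 and 216 to 265 in Control.

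**Figure D4:**
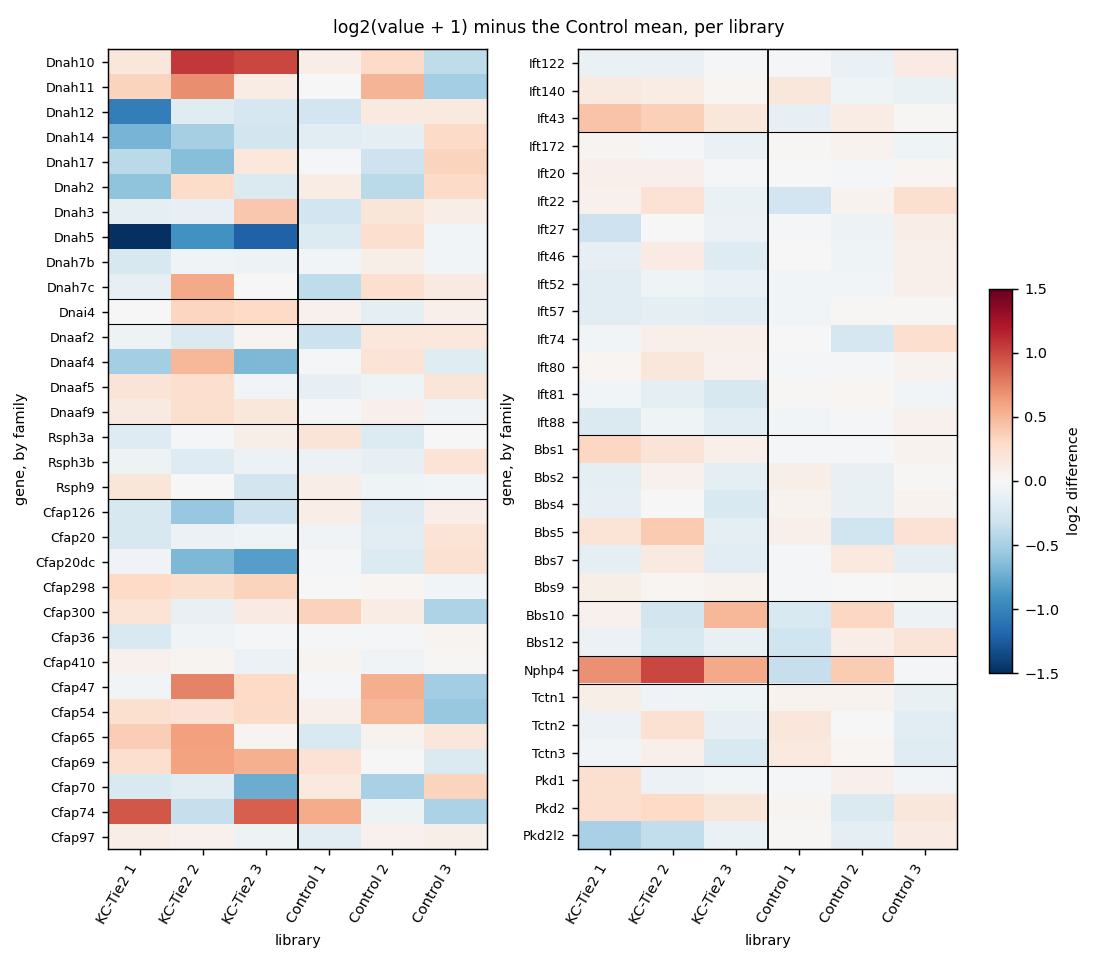
Log2(value + 1) minus the Control mean in each library (columns, KC-Tie2 left of the line and Control right of it) for 61 ciliary genes (rows, grouped by family); the colour scale ends at -1.5 and 1.5, and KC-Tie2 replicate 1 of Dnah5 lies beyond it. The Dnah5 row is blue in all 3 KC-Tie2 columns and the Nphp4 row red, while most IFT, BBSome and tectonic rows are pale in all 6 libraries.

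Across the 63 genes, precision followed level. The 22 ciliary genes averaging under 100 had a median absolute log2 fold change of 0.338 and a median SE of 0.27, against 0.232 and 0.281 over all tested genes under that mean. The other 41 ciliary genes had 0.0864 and 0.098, against 0.105 and 0.0974 over all tested genes of that level. The highest of the 6 values was in Control replicate 3 at 21 genes and in KC-Tie2 replicate 2 at 17 genes, and in KC-Tie2 replicate 3 at 4 genes. The 63 genes together took 0.134%, 0.131% and 0.122% of the table's sum in KC-Tie2 replicates 1 to 3, against 0.119%, 0.121% and 0.123% in Control replicates 1 to 3, which overlapped between the genotypes.

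Genes with other names, taken from 8 lists of ciliary and related genes, gave no call in limma or voom, where limma called 1.69% of all genes. Not every listed gene is specific to the cilium. The lists held 16 motile cilium, 14 IFT, 16 motor, 31 transition zone, 23 cystic disease, 13 Hedgehog, 16 centriole and 15 cytoplasmic dynein genes tested, with 1, 2, 4, 4, 2, 3, 1 and 1 of them at an unadjusted p under 0.05. Over all genes, 15.3% had an unadjusted p under 0.05. Of the 39 motile cilium genes listed, 16 were in the table. The median log2 fold changes of the 8 lists lay between -0.026 and 0.088, against 0.0012 over all genes tested. Tmem237, a transition zone gene, was at 202, 206 and 209 in KC-Tie2 and 298, 239 and 388 in Control libraries, with every KC-Tie2 library lower (log2 fold change -0.55 ± 0.16, limma adjusted p = 0.114). The authors' deposited table gave it a step-up FDR of 0.0435. It was the one gene of these lists under 0.05 there, where 3.91% of all genes were. In the Hedgehog pathway, which signals through the primary cilium, the receptor gene Smo averaged 1646 ± 58.5 in KC-Tie2 and 1951 ± 46.0 in Control kidneys (ratio 0.844, limma adjusted p = 0.0838). The Hedgehog transcription factor Gli2 averaged 16.4 ± 6.31 in KC-Tie2 and 41.0 ± 13.2 in Control kidneys (limma adjusted p = 0.130). Kif7, a kinesin of the cilium tip that acts on Gli proteins, averaged 43.8 ± 7.39 in KC-Tie2 and 23.1 ± 9.12 in Control kidneys (limma adjusted p = 0.184). Dynll2, a dynein light chain, averaged 3387 ± 212 in KC-Tie2 and 3908 ± 166 in Control kidneys (limma adjusted p = 0.184). The groups of Smo, Gli2, Kif7 and Dynll2 did not overlap, but these were named as the 2 genes of lowest p in their lists. Of the 13 Hedgehog genes, 3 showed no overlap, each of them lower in KC-Tie2. Of these 3, Gli2 reached 24.78, which every gene of the table reaches in some library, only in Control libraries. If that level was a filter, it favoured a lower KC-Tie2 value for Gli2. Over the 13 Hedgehog genes, 8 log2 fold changes lay above 0 and 5 below 0, with a median of 0.044. Of the 16 motor genes, 8 showed no overlap, 4 higher and 4 lower in KC-Tie2. Over all 17539 genes tested, 20% showed no overlap, 1747 of them higher and 1761 lower in KC-Tie2.

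Of the cystic disease genes, Kif12, a kinesin known as a modifier of cystic kidney disease in the mouse, was at 3632, 4012 and 3271 in KC-Tie2 and 3113, 2876 and 2986 in Control libraries (log2 fold change 0.28 ± 0.08, limma adjusted p = 0.118). Ren1, which encodes the protease renin, was at 1347, 3047 and 1345 in KC-Tie2 and 684, 636 and 970 in Control libraries (limma adjusted p = 0.289). Neither gene's groups overlapped, and KC-Tie2 replicate 2 stood far above the other libraries for Ren1. Xpnpep3, an aminopeptidase linked to a nephronophthisis-like disease in human, averaged 750 ± 47.3 in KC-Tie2 and 869 ± 43.9 in Control kidneys (limma adjusted p = 0.210). Among motile cilium genes, Ak7, an adenylate kinase, averaged 56.0 ± 14.3 in KC-Tie2 and 36.0 ± 5.06 in Control kidneys, and the dynein assembly factor Zmynd10 averaged 291 ± 2.82 in KC-Tie2 and 333 ± 49.9 in Control kidneys (limma adjusted p = 0.286 and 0.533). In the transport list, the small GTPase Arl3, which unloads lipid-modified cargo in the cilium, averaged 507 ± 37.4 in KC-Tie2 and 435 ± 31.6 in Control kidneys (limma adjusted p = 0.295). Tulp3, an IFT-A adaptor for membrane receptors, averaged 1254 ± 87.2 in KC-Tie2 and 1426 ± 119 in Control kidneys (limma adjusted p = 0.309). The groups overlapped for Tulp3 and Zmynd10 and not for Ak7, Arl3 and Xpnpep3. No overlap was seen at 8.7% of the cystic disease list, 6.25% of the motile cilium list, 28.6% of the IFT list and 29.0% of the transition zone list. The centriole genes Ofd1 and Pcm1 averaged 243 ± 33.3 and 1959 ± 45.2 in KC-Tie2 and 197 ± 6.06 and 1793 ± 55.4 in Control kidneys (limma adjusted p = 0.313 and 0.367). The cytoplasmic dynein light intermediate chain Dync1li1 and the dynactin subunit Actr1b averaged 1740 ± 78.8 and 2618 ± 92.7 in KC-Tie2 and 1544 ± 67.0 and 2408 ± 62.8 in Control kidneys (limma adjusted p = 0.244 and 0.408). These last 4 genes stood higher in every KC-Tie2 library than in every Control library. They were named as the 2 genes of lowest p in their lists, so their separation cannot be set against that of all genes. In either direction, no overlap was seen at 2 of the 16 centriole genes and 3 of the 15 cytoplasmic dynein genes. Over all genes, 20% showed no overlap.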

How the data were processed

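RNA of 3 KC-Tie2 and 3 Control kidneys was sequenced from poly(A)-selected libraries, per the labels' protocols. The deposited values are a signal on a normalized count scale. Partek 12.5.0, STAR, DESeq2 and the build mm39 are named in the submitters' processing notes, with no role for each. In each library 68.2% to 71.0% of low values were whole multiples of one step, within 0.01, so the table was read as estimated counts scaled by a single factor for each library. The authors' deposited comparison gives a p-value, a step-up FDR, a ratio, a signed fold change (a score) and model mean signals per gene. Other columns hold the genomic span.

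Genes with a mean of at least 10 were tested on log2(value + 1) with limma 3.58.1 in R 4.3.3 (linear model with moderated variance, trend and robust options on, 4 residual degrees of freedom), two-sided, with Benjamini-Hochberg adjustment over 17539 genes. The fit was tested on simulated data. Intervals are 95% intervals of single genes from this fit. Gene ends are 1 base before the listed stop. Descriptions and figures used Python 3.11.15, pandas 2.3.3, numpy 2.4.6 and matplotlib 3.10.9. The members and lists were chosen with earlier results of these data known. Genes named were all called members, members with an unadjusted p under 0.05 and no overlap, the 3 members of lowest p and the 2 of highest mean in each family, a set always named, and from the other lists the called genes or the 2 of lowest p; this gave 39 members and 16 genes of the other lists. The segment markers Slc12a3, Calb1, Trpm6, Pvalb, Slc5a12, Aqp1, Cubn, Slc5a2, Umod, Egf, Cldn16, Fxyd4 and Aqp4 were named after their values were seen. The same holds for Pax8, Akap12, Cldn1, Ncam1, C1qa, C1qb, C1qc, Csf1r, Cd68 and Adgre1. It also holds for Kdm5d, Uty, Ddx3y, Eif2s3y and Xist. Bbs7, Cfap20dc, Cfap20, Cfap74, Dnah7c and Ift20 were named after their values were seen, as were the motif letters. Results of 2 of the genes are not reported here and are not drawn in the figures, though they stay in counts over all 63. As alternatives, the fit was repeated with voom, library weights, quantile normalization, an equal sum of nuclear protein-coding genes, a replicate block, the robust option off, pseudocounts of 0.5 or 5, genes averaging 100 or more, all genes, and each library left out.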

Additional observations from a re-analysis of the deposited data

How the results depend on the processing

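Under the 16 alternatives, no ciliary gene other than Dnah5 was called. Of 38 other named genes, 28 kept the sign of their log2 fold change under every alternative that tested them, and 10 with small differences, among them the 3 tectonics and Pkd1, changed sign at least once without being called. Family medians of the log2 fold change moved past the spread of the libraries at 5 values in 3 families, among them the IFT-B median (-0.137 without KC-Tie2 replicate 2 and 0.000569 without KC-Tie2 replicate 3) and the polycystin median (0.143 at a mean of at least 100 and -0.0616 without KC-Tie2 replicate 1). Dnah5 was called under 10 of the 17 settings, the one reported included. With eBayes without robust its log2 fold change was -1.35 (adjusted p = 0.0607), so 0 ciliary genes were called; at a mean of at least 100 it was not tested and 0 were called. With libraries left out in turn, its log2 fold change ran from -1.57 to -1.06, and the count of called ciliary genes, and of those called lower, from 0 to 1. The number of all genes called was 297 (150 higher, 147 lower), and it ran from 48 to 682 with libraries left out (25 to 311 higher, 18 to 371 lower). It was 549 with library weights (263 higher, 286 lower). With the replicate block it was 581 (259 higher, 322 lower). Same-numbered libraries had correlations of their deviations of 0.178, -0.0956 and 0.0173, and libraries of unlike number had -0.283 to 0.26. Xist was highest in replicate 3 of each genotype (241 in KC-Tie2 and 415 in Control). With 3 libraries a genotype, these values cannot settle whether same-numbered libraries were paired. The block left Dnah5 as the 1 ciliary gene called (limma adjusted p = 0.0116). The equal sum of nuclear protein-coding genes moved the median of all genes to 0.043, and the other settings to under 0.01. Depth limits the heavy chains and low Cfap genes: with 3 libraries a genotype, changes smaller than their intervals were not detectable.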
